A study of Mus musculus with 4 samples.

Results

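Junction and adhesion proteins hold neighbouring cells together, and 8 genes that encode such proteins or receptors best known from blood vessel walls were described here in mouse hematopoietic stem and progenitor cells (HSPCs). The genes were Cldn5, F11r, Jam2, Esam, Pecam1, Alcam, Tm4sf1 and Ramp2, which is 8 of the 28692 genes in the files, and each was found by its symbol in all 4 pools of cells. They were selected with the age differences of these same pools known, so their levels with age are given as a description, with no test. The cells came from the bone marrow of male C57BL/6-CD45.2 mice and were sorted as negative for lineage markers, positive for Sca1 and cKit and negative for Flt3. The young mice were 2 to 3 months old and the old mice 17 to 18 months old, no other treatment or allele was given, and each pool mixed the marrow of 2 or 3 mice. One young and one old pool (A) were captured at HalioDX and one of each age (B) at TGML, so platform, mouse batch and facility cannot be told apart.

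In vessel walls, tight junctions seal the gap between endothelial cells, and claudins, junctional adhesion molecules and their cytoplasmic scaffolds build them. Stem cells in the marrow sit beside such vessels and share several surface proteins with them, and blood and endothelium arise from common precursors in the embryo. ESAM, PECAM1 and junctional adhesion molecules are also found on platelets and leukocytes, where they take part in adhesion and in crossing the vessel wall.

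After cells with unusually low or high totals were left out, 14915 of 15566 cell barcodes remained, with a median of 5674 to 6719 unique molecular identifiers (UMIs, 1 per captured transcript) per cell, and 115 barcodes were present in more than 1 pool. The free-text notes of young pool B and old pool A name the opposite age to their titles and source names, and ages were taken from the titles. With the ages so assigned, Vwf (von Willebrand factor) was 6.96 times higher in old than young cells on platform A and 7.64 times on B. The sort was checked against 15 genes of endothelial cells, whose summed level was 230.4, 202.4, 300.2 and 202.5 UMIs per 1000000 UMIs (CPM) in young A, young B, old A and old B. VE-cadherin (Cdh5), which defines endothelium, had 13, 0, 1 and 0 UMIs in those pools, and Sox17 had none in any pool. Other genes of the list were plentiful, as Eng with 91.9, 89.9, 135.2 and 98.8 CPM. Cd93, Tie1 and Emcn lay between 21.0 and 57.3 CPM over the pools. Between 0 and 7 cells of a pool held at least 2 of 8 defining endothelial genes, and 255, 53, 194 and 225 cells held at least 1. Of these 8, in the same order of pools, Kdr stood at 3.21, 1.34, 6.78 and 5.11 CPM. Fabp4, also of the 8, stood at 3.98, 1.40, 1.15 and 1.23 CPM. The summed level of 10 platelet genes was 266.5, 237.4, 320.7 and 403.6 CPM, higher in both old pools, and its part in the levels below was not tested. Stromal genes lay between 4.96 and 12.3 CPM, macrophage genes between 17.4 and 28.2 CPM, and erythroid genes between 82.1 and 1063 CPM.

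On the GRCm38 build, Cldn5 is at chr16:18776847-18778262 on the plus strand and Tm4sf1 at chr3:57285611-57301988 on the minus strand. Jam2 is at chr16:84774123-84825928 and Esam at chr9:37528078-37538319, both on the plus strand. F11r is at chr1:171437535-171464603 and Ramp2 at chr11:101246028-101259546, both on the plus strand. Alcam is at chr16:52248996-52454074 and Pecam1 at chr11:106654217-106750628, both on the minus strand. In the GENCODE annotation, Ramp2 overlaps Vps25 and Jam2 overlaps Gm25908 on the same strand, so reads in the overlaps are uncertain for these 2 genes.

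Promoter sequences in RefSeq (GRCm38.p6) matched 4 of the 8 genes, namely F11r, Alcam, Cldn5 and Tm4sf1. The 250 bases before the start are shown for Cldn5 and Tm4sf1, because these 2 genes had the widest gaps between young and old pools and varied most alike over pools and clusters. The Cldn5 stretch is chr16:18776597-18776846 on the plus strand, with a GC box in capitals, read on the other strand. The Tm4sf1 stretch is chr3:57301989-57302238 on the minus strand, with an ETS match and then a RUNX match, the latter read on the other strand, in capitals, and both are written 5′ to 3′.
Cldn5: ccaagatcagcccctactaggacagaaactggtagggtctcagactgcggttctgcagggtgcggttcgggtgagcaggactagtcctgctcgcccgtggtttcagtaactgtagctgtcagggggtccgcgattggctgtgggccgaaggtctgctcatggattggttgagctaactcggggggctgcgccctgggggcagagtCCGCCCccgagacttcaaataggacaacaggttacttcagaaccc
Tm4sf1: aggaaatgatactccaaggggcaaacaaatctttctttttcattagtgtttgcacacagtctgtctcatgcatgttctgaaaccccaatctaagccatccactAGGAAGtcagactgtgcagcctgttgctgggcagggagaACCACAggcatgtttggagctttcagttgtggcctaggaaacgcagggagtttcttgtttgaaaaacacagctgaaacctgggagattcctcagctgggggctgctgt
The letters searched on both strands were GGGCGG for the GC box, AGGAAG for ETS factors, TGTGGT for RUNX factors, AGATAA for GATA factors, TGANTCA for AP-1 and TATAAA for a TATA box. Among 32851 promoters cut to the same 250 bases, 32.7% held the GC box, 29.5% the ETS letters, 14% the RUNX letters, 9.99% the GATA letters, 6.75% the AP-1 letters and 12.4% the TATA letters. Cldn5 held 1 GC box and none of the others, and Tm4sf1 held 1 ETS and 1 RUNX match and no GC box. F11r held 1 AP-1 match and 1 GC box, and Alcam held 1 ETS match and 2 GC boxes. No motif was common to all 4 stretches.

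Cldn5, which encodes the claudin that seals endothelial tight junctions, was nearly absent from young HSPCs and abundant in old ones. Its level was 3.92 CPM in young A, 3.60 in young B, 99.0 in old A and 142.1 in old B, which is 25.2 times higher in old cells on platform A and 39.5 times on B. Both old pools lay far above both young pools. Such a level in a pool cannot tell more cells with the transcript from more transcript per cell, and the shares of cells given below address that in part.

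The junctional adhesion molecules are immunoglobulin-type proteins that bind across cell contacts. Jam2 (JAM-B), a partner of JAM-C, stood at 5.68 and 5.85 CPM in young A and B and at 36.8 and 41.5 CPM in old A and B, with folds of 6.48 on A and 7.08 on B. F11r (JAM-A), which is common to epithelium, endothelium, platelets and leukocytes, stood at 9.91 and 20.4 CPM in young A and B and at 51.8 and 22.0 CPM in old A and B. Jam2 thus separated the ages with little spread between platforms, whereas the F11r fold was 5.23 on A and 1.08 on B, so that old B exceeded young B by less than the young pools differed from each other.

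Among the other immunoglobulin-type adhesion molecules, Esam, an adhesion molecule of endothelium and platelets that also marks stem cells, was plentiful at both ages. Esam stood at 67.4 and 79.3 CPM in young A and B and at 144.1 and 145.5 CPM in old A and B, folds of 2.14 and 1.84. Alcam (CD166), which binds CD6 and itself, stood at 26.9 and 29.6 CPM in the young pools and at 99.0 and 54.5 CPM in old A and B, folds of 3.68 and 1.84. Pecam1 (CD31), a self-binding molecule of endothelium, platelets and leukocytes, stood apart from the other genes, with 36.7 and 23.4 CPM in young A and B and 46.2 and 12.6 CPM in old A and B. The Pecam1 fold was 1.26 on A and 0.54 on B, so the platforms went opposite ways and the ages overlapped. By the sequencing depths the labels give, young B and old A were read more deeply per cell than young A and old B, and the part of depth in the platform differences of F11r, Alcam and Pecam1 was not tested.

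Tm4sf1, a small membrane protein of the L6 family found on endothelial and tumour cells, stood at 1.81 and 1.65 CPM in young A and B and at 40.2 and 46.0 CPM in old A and B. Ramp2, which pairs with the calcitonin receptor-like receptor (Calcrl) to form the adrenomedullin receptor, stood at 5.60 and 4.82 CPM in the young pools and at 45.2 and 77.6 CPM in the old pools. The folds on A and B were 22.2 and 28 for Tm4sf1 and 8.08 and 16.1 for Ramp2. Both genes resembled Cldn5 in being rare in the young pools and clearly present in both old pools.

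In all, both old pools lay above both young pools for 7 genes, the exception being Pecam1. Across all genes, edgeR called 1.6% higher and 0.428% lower in old pools, from which nothing is read here because the genes were chosen on this contrast. With the platform as a block, the log2 difference of old minus young was 4.91 ± 0.27 (SE, 2 pools a group) for Cldn5, 4.56 ± 0.23 for Tm4sf1, 3.44 ± 0.32 for Ramp2 and 2.70 ± 0.19 for Jam2. It was 1.33 ± 0.25 for Alcam, 1.20 ± 0.53 for F11r, 0.94 ± 0.16 for Esam and −0.32 ± 0.29 for Pecam1. The SE are those of the fit, and for Alcam, F11r and Pecam1 they did not span the platforms. Folds on A and B were 3.68 and 1.84 for Alcam, 5.23 and 1.08 for F11r and 1.26 and 0.54 for Pecam1. The Pecam1 value was 0.0508 without young A, 0.415 without old B and −1.12 without old A, and that of F11r lay between 0.605 and 1.87 when a pool was left out. The median was 2.02 over the 8 genes and 0.01 over the 13555 genes with enough counts to be fitted, and all 8 were among these.

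**Figure D1:**
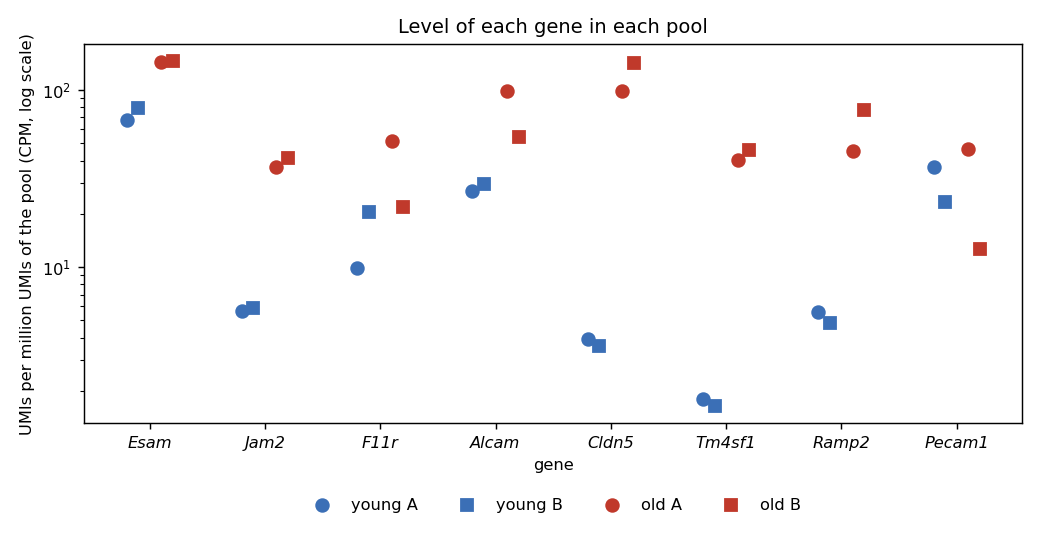
Level of each gene in CPM (log axis), with 1 point per pool, blue for young, red for old, circles for platform A and squares for B. Cldn5, Tm4sf1, Ramp2 and Jam2 show wide gaps between young and old points, F11r in old B (22.0) lies next to young B (20.4), and Pecam1 has 1 old point above and 1 below the young points.

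In the old pools more cells held a UMI of 7 of the genes. A Cldn5 UMI was found in 1.64% of cells in young A (95% exact binomial interval 1.31 to 2.02), 1.11% in young B (0.72 to 1.64), 25.3% in old A (23.9 to 26.8) and 32.6% in old B (31.2 to 34.0). These intervals cover counting error only, not the spread between mice. Cells that had the Cldn5 transcript held on average 1.68, 2.36, 2.44 and 3.49 UMIs of it in young A, young B, old A and old B, so the mean was highest in old B while young B and old A were close to each other. The mean UMIs per positive cell were higher in both old pools than in both young pools for 6 genes, as for Esam with 1.39 and 1.49 in young A and B and 1.70 and 1.87 in old A and B, but not for F11r or Pecam1. Scaled to the UMIs of those cells, this held for Esam, Jam2, Alcam and Ramp2 and not for Cldn5 or Tm4sf1. With every cell thinned to 3000 UMIs, the Cldn5 shares were 0.98%, 0.82%, 17.0% and 21.8%, leaving out 0, 50, 176 and 4 shallower cells of the respective pools.

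Tm4sf1 and Ramp2 showed the same order of pools. Tm4sf1 was seen in 1.10% and 1.02% of young A and B cells and in 20.7% and 28.3% of old A and B cells (thinned 0.66%, 0.50%, 11.5% and 12.5%). Ramp2 was seen in 2.91% and 2.18% of young and 17.2% and 29.5% of old cells (thinned 1.60%, 1.23%, 10.6% and 17.0%). Jam2 was seen in 3.80% and 4.10% of young and 18.6% and 25.8% of old cells (thinned 2.00%, 2.05%, 9.68% and 11.9%). For these 3 genes, no old pool came near a young pool.

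Esam was detected in 34.0% and 38.8% of young and 52.9% and 62.2% of old cells (thinned 18.6%, 21.2%, 34.0% and 33.9%). Alcam was detected in 16.4% and 18.6% of young and 40.1% and 30.4% of old cells (thinned 8.04%, 9.39%, 24.5% and 13.8%). F11r was detected in 6.75% and 13.5% of young and 26.8% and 16.0% of old cells (thinned 3.24%, 5.88%, 14.97% and 6.65%). On platform B, the thinned F11r intervals of young (4.93 to 6.95) and old cells (5.91 to 7.45) overlapped. Pecam1 was detected in 21.3% and 15.2% of young and 23.7% and 9.36% of old cells (thinned 10.5%, 6.47%, 13.8% and 3.93%).

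Free transcripts can give UMIs in cells that do not express a gene, so the shares were set beside those of cells with erythroid genes (pEr-like, median 6930 UMIs). In these cells Cldn5 was seen in 0.45% and 1.37% of young A and B and in 10.3% and 1.64% of old A and B cells, against 3.64%, 3.32%, 39.2% and 52.2% in cluster 0, described below (median 5861 UMIs). Ramp2 was seen in 2.80% and 1.64% of old A and B pEr-like cells and in 29.7% and 47.5% of cluster 0 cells. Tm4sf1 was seen in 9.35% and 1.64% of old pEr-like cells and in 28.9% and 36.7% of old cluster 0 cells. The old pEr-like cells thus held few of these transcripts on platform B, each from 1 UMI in 61 cells, and more Cldn5 and Tm4sf1 on A. Cells with neutrophil genes (pNeu-like, median 8489 UMIs) did not show the low Cldn5 and Tm4sf1 shares on B. There, Cldn5 was seen in 11.1% and 11.3% of old A and B cells, Tm4sf1 in 5.56% and 5.66% and Ramp2 in 3.33% and 3.77%. In old B these came from 6 Cldn5, 3 Tm4sf1 and 3 Ramp2 UMIs in 53 cells. The contrast with pEr-like cells on B thus rests on few UMIs on both sides. Pecam1 was at 19.3%, 13.7%, 16.8% and 3.28% in pEr-like cells and at 16.0%, 12.6%, 22.6% and 9.59% in cluster 0. Its share in cluster 0 was thus below that of pEr-like cells in both young pools and above it in both old pools. The Pecam1 share of old B pEr-like cells came from 2 UMIs in 61 cells. Whether pEr-like cells express Pecam1 themselves was not tested, so their share is no measure of free transcript for this gene.

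Cells that held a Cldn5, Tm4sf1 or Ramp2 transcript also carried blood cell transcripts. Among Cldn5-positive cells, Ptprc, which encodes the leukocyte antigen CD45, was found in 37.6%, 16.0%, 45.7% and 38.3% of young A, young B, old A and old B, the second from 25 cells alone. Among cells without a Cldn5 UMI the shares were 36.0%, 37.8%, 43.8% and 31.9%. In the same order of pools, Ptprc was found in 28.1%, 52.2%, 44.2% and 38.6% of Tm4sf1-positive cells. It was found in 37.1%, 34.7%, 45.8% and 35.5% of Ramp2-positive cells. Spi1 was found in 52.9%, 44%, 37.1% and 46.9% of Cldn5-positive cells, below the other cells (59.8%, 54.7%, 39.5% and 48.1%) in each pool. Kit was found in 40%, 40%, 62.6% and 45.4%, against 47.9%, 39.6%, 58.8% and 38.1% of the others. When every cell with any of the 8 defining endothelial genes was left out, the Cldn5 level was 3.78, 3.63, 96.4 and 139.9 CPM, close to that of all cells.

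More old than young cells held several of the 8 transcripts at once, which is partly fixed by choosing the genes with their age differences known. With 3000 UMIs per cell, 37.3% of young A, 39.1% of young B, 73.7% of old A and 70.5% of old B cells held at least 1 of the 8. At least 3 were held by 0.73% and 0.68% of young A and B cells and by 16.2% and 12.6% of old A and B cells. Without thinning, at least 3 were held by 4.61%, 5.57%, 40.7% and 41.7% of cells, and 8 of 8 was the most found in a cell of either old pool, against 6 in either young pool.

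**Figure D2:**
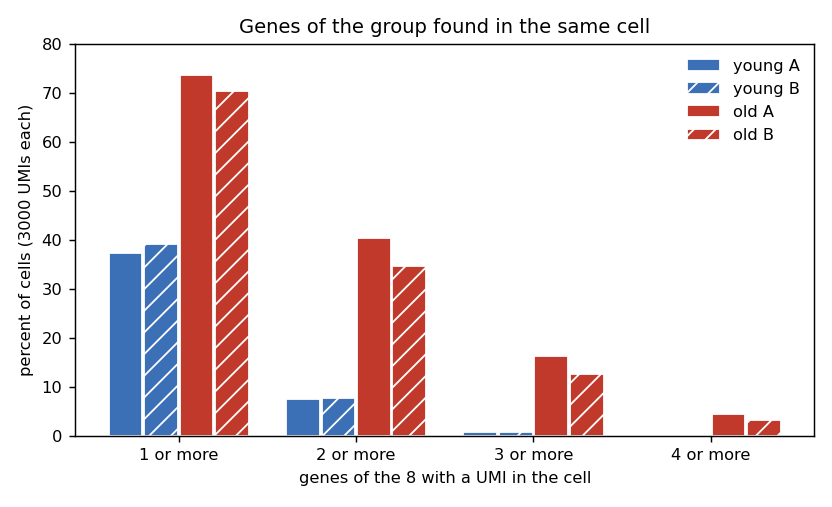
Percent of cells (each thinned to 3000 UMIs) that held at least 1, 2, 3 or 4 of the 8 transcripts, with blue bars for young and red for old pools, and hatching for platform B. At least 2 transcripts were held by 7.57% and 7.79% of young A and B cells and by 40.3% and 34.7% of old A and B cells.

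Within a pool, some pairs met in the same cell more often than their shares alone give. Cldn5 and Ramp2 were found together in 108 thinned cells of old A, where 56.7 would be expected from independent shares, and in 273 cells of old B, where 154.3 would be expected. Cldn5 and Tm4sf1 met in 100 cells of old A against 61.6 expected and in 154 of old B against 113.5. Tm4sf1 and Ramp2 met in 61 cells of old A against 38.5 and in 121 of old B against 88.6. In young A and B, Cldn5 and Ramp2 met in 7 and 2 cells against 0.82 and 0.22 expected. Cldn5 and Tm4sf1 met in 4 cells of young A against 0.33 expected and in no cell of young B, where only 0.09 would be expected. Not every pair went this way in each pool. F11r and Cldn5 exceeded the expected count in 3 pools but met in 41 cells of old B against 60.3. Of the 8 pairs with at least 5 cells expected in every pool, 4 exceeded the expected count in all 4 pools, namely Esam with Jam2, F11r and Ramp2, and F11r with Alcam. Their ratios of observed to expected cells ran from 1.12 to 1.29, 1.02 to 1.57, 1.05 to 1.62 and 1.08 to 1.49, in that order. The excess was thus slight in some pools. These are descriptions without a test, since cells of a pool are not replicates.

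The cells were grouped into 14 clusters after integration of the pools, with the 8 genes left out of the clustering, and 9 clusters had at least 50 cells in every pool. Cluster 0 had 3876 cells, 65% of them old, and outside the 8 genes it was led by Sbspon, Sult1a1, Meg3, Clu and Mllt3. Clusters 1, 2, 4 and 5 carried no set of lineage genes. The others of the 9 were called rep-like (replication genes), div-like (division genes), pNeu-like (neutrophil genes) and pEr-like from their markers. A tgf-like cluster, named from genes such as Fos, Jun and Junb, also met no lineage list. It had 10 cells in young B and so is not among the 9. Cldn5 and Ramp2 headed cluster 0, and neither was used to form it. That ranking pooled the cells of both ages, so for genes chosen on age it is partly fixed by the share of old cells.

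In the old pools Cldn5 was, among the 9 clusters, highest in cluster 0, with 185 CPM in A and 243.9 in B, followed by cluster 2 with 123.8 and 179.6. Cluster 5 came next with 102 and 171.4 CPM, lower than cluster 2 within each pool although the ranges over the pools overlapped. The tgf-like cluster, outside the 9, had 74.4 and 209.5 CPM in old A and B. In the young pools Cldn5 was also highest in cluster 0, at 12.1 and 15.5 CPM. Cldn5 was thus highest in the same cluster at both ages, and the old level exceeded the young level in the 9 clusters on both platforms, in pEr-like cells on B from 1 UMI at each age.

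By the mean of the old pools, Ramp2 and Tm4sf1 followed the same leading order of the 9 clusters. Within pools, Ramp2 in cluster 5 had 47.1 CPM in old A, below cluster 2, and 100.3 CPM in old B, above cluster 2. In tgf-like cells of old A and B, Ramp2 was at 17.0 and 99.4 CPM and Tm4sf1 at 47.7 and 65.6 CPM. Ramp2 was at 86.5 and 129.9 CPM in cluster 0 of old A and B and at 60.9 and 93.9 CPM in cluster 2, higher in cluster 0 within each pool although the ranges overlapped. Tm4sf1 was at 58.8 and 63.0 CPM in cluster 0, at 54.9 and 54.7 in cluster 2 and at 44.3 and 50.2 in cluster 5. Jam2 was at 58.1 and 58.8 CPM in cluster 0 of old A and B, above cluster 2 with 38.9 and 50.9. In young cells the mean was also highest in cluster 0, at 18.4 CPM for Ramp2 and 11.3 for Jam2. For Tm4sf1, cluster 0 had 5.10 and 6.92 CPM in young A and B and cluster 2 had 5.13 and 2.67, so that young A showed no order between them. The Tm4sf1 fold of old over young on A and B was 11.5 and 9.1 in cluster 0 and 10.7 and 20.5 in cluster 2. In rep-like cells it was 26 and 24.3. Young A and B held 27 and 17 Tm4sf1 UMIs in cluster 0, 15 and 5 in cluster 2 and only 5 and 4 in rep-like cells. In young B, Tm4sf1 had no UMI in clusters 1 and 4 or in div-like, pNeu-like and pEr-like cells, so no fold is given there.

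Esam was nearly flat over clusters 0, 1, 2, 4 and 5 in old cells, while tgf-like cells had 214.2 and 160.8 CPM in old A and B. Its old mean lay between 152.1 and 164.8 CPM in clusters 0, 1, 2, 4 and 5, whose neighbours in this order had overlapping ranges over the pools, and it was 23.9 CPM in pNeu-like and 16.4 in pEr-like cells. Of the 9 clusters, Alcam was highest in cluster 0 with 140 and 79.9 CPM in old A and B, where tgf-like cells had 106.7 and 97.3 CPM. F11r had no leading cluster, with 64.3 and 22.6 CPM in cluster 0 and 54.9 and 29.4 CPM in cluster 2 of old A and B. Among the 9 clusters Pecam1 was highest in pNeu-like cells at both ages, with 53.9 and 36.3 CPM in young A and B and 70.2 and 19.1 in old A and B. In the smaller pMast-like cluster, named from mast cell genes, a Pecam1 UMI was found in 52.8% and 29.7% of young A and B cells and in 61.3% and 28% of old A and B cells. Higher levels in old cells on both platforms were found in 8 of 9 clusters for Esam, 5 for Alcam, 5 for F11r and 0 for Pecam1. For F11r, the folds on B in those 5 clusters lay between 1.02 and 1.38 only, in pNeu-like cells from 7 young and 5 old UMIs.

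**Figure D3:**
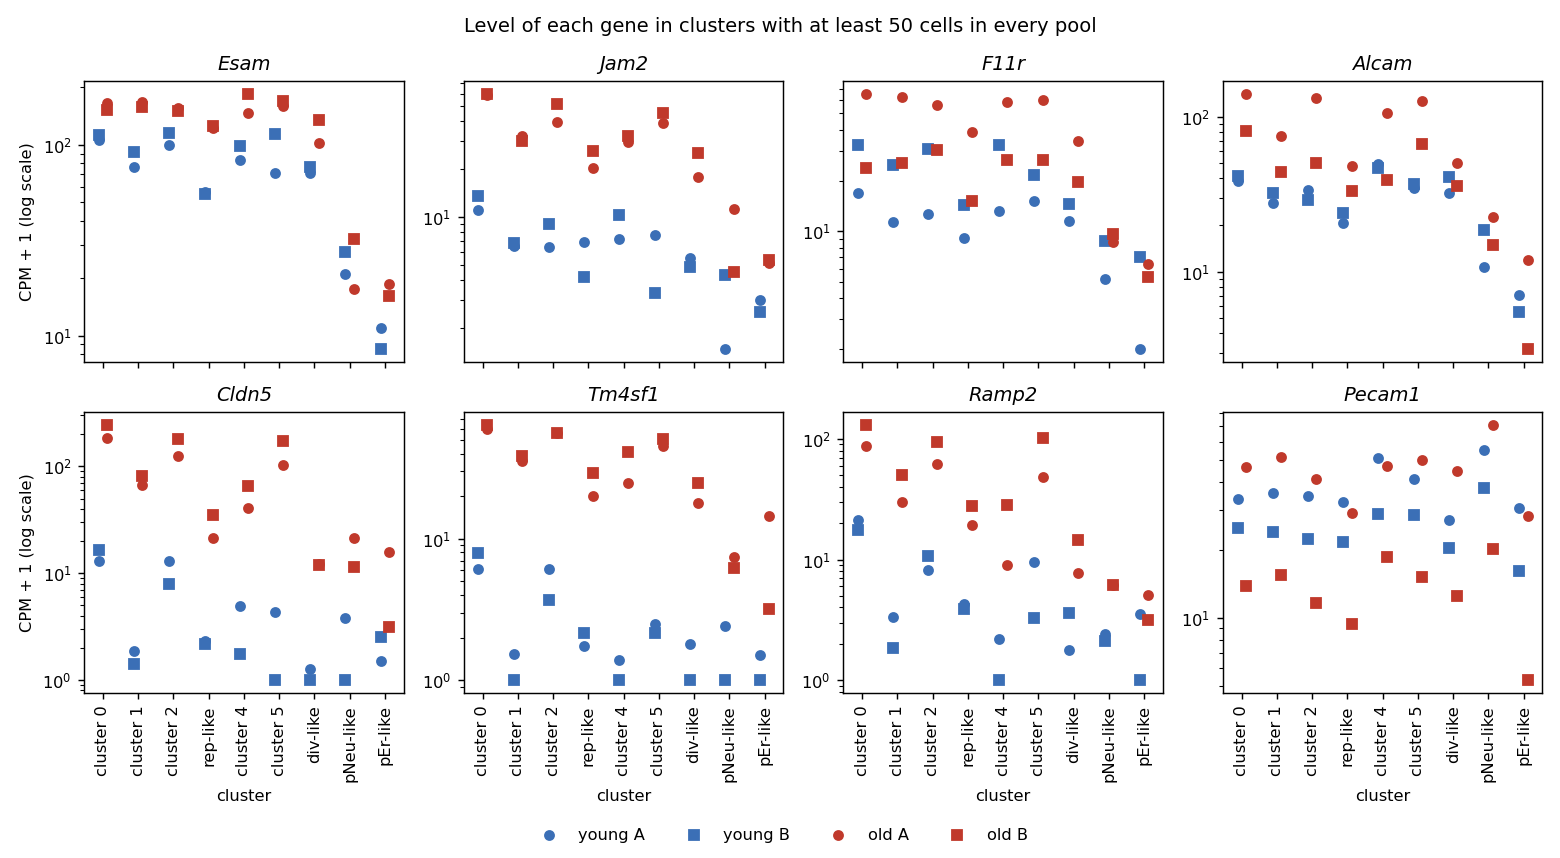
Level of each gene as CPM + 1 (log axis) in the 9 clusters with at least 50 cells in every pool, with 1 point per pool, blue for young, red for old, circles for platform A and squares for B. Within a platform, red points lie above blue points in these clusters for Jam2, Cldn5, Tm4sf1 and Ramp2, in some clusters from very few UMIs (Jam2 in pNeu-like cells on B from 3 young and 2 old UMIs), and Pecam1 shows no such separation.

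Old pools held more of cluster 0, so the levels were also computed with the clusters given the same weights in every pool, a calculation chosen after seeing the data. The weighted folds on A and B were 15.5 and 23.5 for Cldn5, where the same clusters without weights gave 25.0 and 38.7. They were 15.1 and 17.4 for Tm4sf1 (22.3 and 26.9 without weights) and 5.35 and 10.6 for Ramp2 (8.20 and 15.8). They were 5.48 and 5.35 for Jam2 (6.53 and 6.89) and 1.77 and 1.55 for Esam (2.03 and 1.79). Thus for each of these genes the difference became smaller but stayed above 1 on both platforms. Alcam gave 3.18 and 1.56, F11r gave 4.47 and 0.91, turning below 1 on B, and Pecam1 gave 1.23 and 0.54.

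Over the 42 combinations of pool and cluster that had enough cells, the 3 genes of 7806 most alike in pattern included others of the 8 for Jam2, Cldn5, Tm4sf1 and Ramp2 and none for Esam, F11r, Alcam and Pecam1. The combinations span both ages, so likeness among genes chosen on age is partly fixed by that choice. Among the 3 closest to Cldn5 were Tm4sf1 (Pearson r = 0.96) and Ramp2 (0.95). Tm4sf1 was closest to Nupr1 (0.97), a stress-responsive gene, then Matn4 (0.97) and Cldn5 (0.96), and Ramp2 was closest to Cldn5 and then Sbspon (0.94). Jam2 was closest to Clec1a, Gm10419 and Tm4sf1, each at 0.95. With the mean of each pool removed, which leaves out the level of age itself, Cldn5 was closest to Ramp2 (0.94). Tm4sf1 (0.92) was again among its 3 closest. For Jam2 the 3 closest were then Adck3 (0.93), Nupr1 (0.93) and Susd3 (0.91), none of them among the 8. Esam was closest to Gng11 (0.96), Anxa5 (0.95) and Ndn (0.95), F11r to Mmrn1 (0.90), Alcam to Ctsb (0.92) and Pecam1 to Fam107b (0.91). The combinations share 4 pools and thus libraries and depth, so these correlations are descriptions.

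Procr, Cd48 and Vwf were then used to compare the genes between kinds of cells within each pool. The markers themselves differed with age. On A and B, the old over young folds were 1.94 and 1.72 for Procr, 0.411 and 0.167 for Cd48 and 6.96 and 7.64 for Vwf. The genes were chosen on age, so the calls below are not independent of that choice, also where the shares over all genes stand beside them. Procr (the endothelial protein C receptor) marks stem cells, Cd48 marks progenitors that have left the stem cell state, and Vwf marks stem cells inclined to platelets. UMIs were summed for the cells with and without a UMI of the marker in each pool, and the 8 sums were tested with edgeR with the pool as a block. The p-values thus rest on 4 pools, but the SE of a fit can be narrower than the spread of the ratios over pools. For Ramp2, ratios with against without Vwf ran from 1.28 to 7.19, beside a fitted log2 difference of 0.66 ± 0.15. Without the block, none of the Procr or Vwf calls below passed and 1 of the Cd48 calls did (Esam). Detecting a marker depends on the UMIs of a cell. Results after thinning are given for the Procr and Cd48 calls and elsewhere where thinning changed a call.

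Genes of the group were higher in cells with a Procr UMI for 7 of 8, where edgeR called 15.9% of 12963 genes higher and 16.2% lower. The log2 difference was 1.22 ± 0.13 (SE) for Cldn5 (Benjamini-Hochberg adjusted p = 7.94e-05 by edgeR) and 1.22 ± 0.11 for Ramp2 (adjusted p = 4.23e-05 by edgeR). It was 0.90 ± 0.09 for Tm4sf1 (7.72e-05), 0.69 ± 0.07 for Alcam (5.31e-05) and 0.67 ± 0.12 for Jam2 (0.00156). It was 0.52 ± 0.07 for F11r (3.98e-04) and 0.49 ± 0.06 for Esam (1.80e-04). With cells thinned to 3000 UMIs the 7 calls were made too, with smaller differences of 0.683 for Cldn5, 0.668 for Tm4sf1, 0.61 for Ramp2, 0.415 for Jam2, 0.395 for Alcam, 0.323 for Esam and 0.289 for F11r. The 7 genes were higher with Procr in 4 of 4 pools, except Jam2, which was at a ratio of 0.97 in young B. Pecam1 had a difference of 0.02 ± 0.07 (0.866) and was higher in 2 of 4 pools.

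In cells with a Cd48 UMI, 7 of the 8 genes were lower and Pecam1 was higher, where edgeR called 18.3% of 12991 genes higher and 19.3% lower. The log2 difference was −2.14 ± 0.24 for Ramp2 (adjusted p = 4.56e-05 by edgeR), −1.70 ± 0.18 for Tm4sf1 (2.59e-05), −1.66 ± 0.26 for Cldn5 (4.75e-04) and −1.61 ± 0.16 for Jam2 (1.92e-05). It was −1.28 ± 0.09 for Esam (2.98e-06), −1.28 ± 0.14 for F11r (3.21e-05) and −1.10 ± 0.13 for Alcam (7.66e-05). Each of the 7 was lower with Cd48 in 4 of 4 pools. With cells thinned to 3000 UMIs the 7 calls were made too. The differences were then −2.65 for Ramp2, −2.45 for Cldn5, −2.39 for Tm4sf1, −2.27 for Jam2, −1.30 for F11r, −1.29 for Esam and −1.28 for Alcam. Cldn5 had no UMI in the 503 Cd48-positive cells of young B, which allows a share of cells with a UMI, not of cells that express it, of up to 0.596%. The Pecam1 difference was 0.34 ± 0.09 (0.0102), higher in 3 of 4 pools, and it was not called with cells thinned to 3000 UMIs (adjusted p = 0.226 by edgeR), without young A (0.0674) or without young B (0.0502).

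In cells with a Vwf UMI, 4 of the 8 genes were higher and 0 lower, where edgeR called 1.89% of 13342 genes higher and 2.78% lower. These were Ramp2 at 0.66 ± 0.15 (adjusted p = 0.0132 by edgeR), Cldn5 at 0.61 ± 0.11 (0.00163), Jam2 at 0.43 ± 0.07 (6.12e-04) and Esam at 0.25 ± 0.06 (0.0138). The difference was 0.47 ± 0.14 for Tm4sf1 (0.0616) and 0.19 ± 0.07 for Alcam (0.119), which did not pass. F11r at 0.07 (0.711) and Pecam1 at −0.04 (0.903) also did not pass. After thinning, Esam (adjusted p = 0.501 by edgeR) and Jam2 (0.0548) were no longer called and Tm4sf1 was (0.00113). Esam was not called without young A (0.0849), and Tm4sf1 (0.0112) and Alcam (0.0165) were called without young B. DESeq2 called Esam but not Jam2 (log2 difference 0.456, adjusted p = 0.0578), Cldn5 (1.04, 0.13) or Ramp2 (1.48, 0.183). Its difference for Tm4sf1, also not called, was 1.61. The sizes for Cldn5, Ramp2 and Tm4sf1 thus depended on the method. Ratios with against without Vwf also differed widely between pools, for Tm4sf1 from 1.27 to 15.8.

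**Figure D4:**
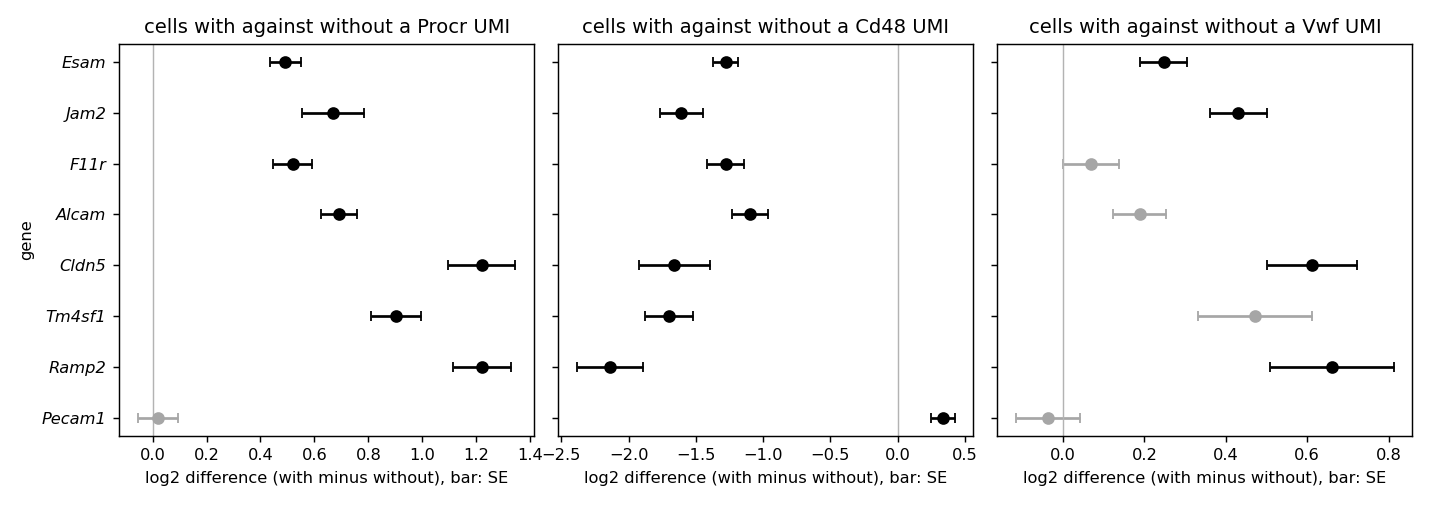
Log2 difference (dot, with SE as bar) of each gene between cells with and without a Procr, Cd48 or Vwf UMI, from edgeR over 8 sums of 4 pools, where black dots passed an adjusted p of 0.05 and grey dots did not. The genes other than Pecam1 lie to the right of 0 for Procr and to the left for Cd48, and Cldn5 and Ramp2 lie farthest right for Procr.

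The Vwf difference was not alike at both ages for 3 of the genes, by an interaction term that was added after seeing the data. The term uses the age contrast on which the genes were chosen, so its calls are not independent evidence. In young A and B, Tm4sf1 stood at 1.49 and 0.85 CPM in cells without Vwf and at 6.82 and 13.4 CPM in cells with Vwf. The former came from 51 and 13 UMIs and the latter from 15 and 14 UMIs. In old A and B, it stood at 36.3 and 41.2 CPM without and at 48.7 and 52.4 CPM with Vwf. Ratios with against without Vwf were thus 4.58 and 15.8 in the young pools and 1.34 and 1.27 in the old pools, with no overlap between ages.

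Ramp2 stood at 4.58 and 3.45 CPM without and at 21.4 and 24.8 CPM with Vwf in young A and B, the latter from 47 and 26 UMIs. In old A and B, it stood at 37.8 and 69.2 CPM without and at 61.2 and 88.7 CPM with Vwf. Cldn5 had ratios of 2.98 and 3.74 in the young pools and of 1.74 and 1.23 in the old pools. Among all genes, the interaction was called lower in old cells for 0.352% and higher for 0.127%. It was −2.39 ± 0.37 on the log2 scale for Tm4sf1 (adjusted p = 4.82e-06 by edgeR), −1.92 ± 0.23 for Ramp2 (4.99e-10) and −1.15 ± 0.30 for Cldn5 (0.0448). After thinning it was no longer called for Tm4sf1 (−2.59, adjusted p = 0.0542 by edgeR) or Ramp2 (−1.68, 0.0876), at sizes close to those before, and both stayed called when any pool was left out. For Cldn5 the call was lost after thinning (adjusted p = 0.92 by edgeR), without the filter on cells (0.244), with DESeq2 (0.348), and without young A (0.319), young B (0.189) or old B (0.599).

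For Tm4sf1, Ramp2, Cldn5, Esam and, by little, F11r, the fold between ages was smaller in cells with Vwf than without on both platforms. For Jam2, Alcam and Pecam1 it was not smaller on both. These folds are given as a description. Without Vwf, the Tm4sf1 fold of old over young was 24.4 on A and 48.7 on B, and with Vwf it was 7.15 and 3.92. The young A and B levels behind these folds rested on 51 and 13 UMIs without Vwf and on 15 and 14 with Vwf. The Ramp2 fold was 8.25 and 20 without Vwf and 2.86 and 3.57 with Vwf. The Cldn5 fold was 22.9 and 42.3 without and 13.4 and 13.8 with Vwf, and that of Esam 2.07 and 1.8 without and 1.88 and 1.4 with Vwf. Cells with a Vwf UMI were 288 and 123 in young A and B and 948 and 1522 in old A and B.

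**Figure D5:**
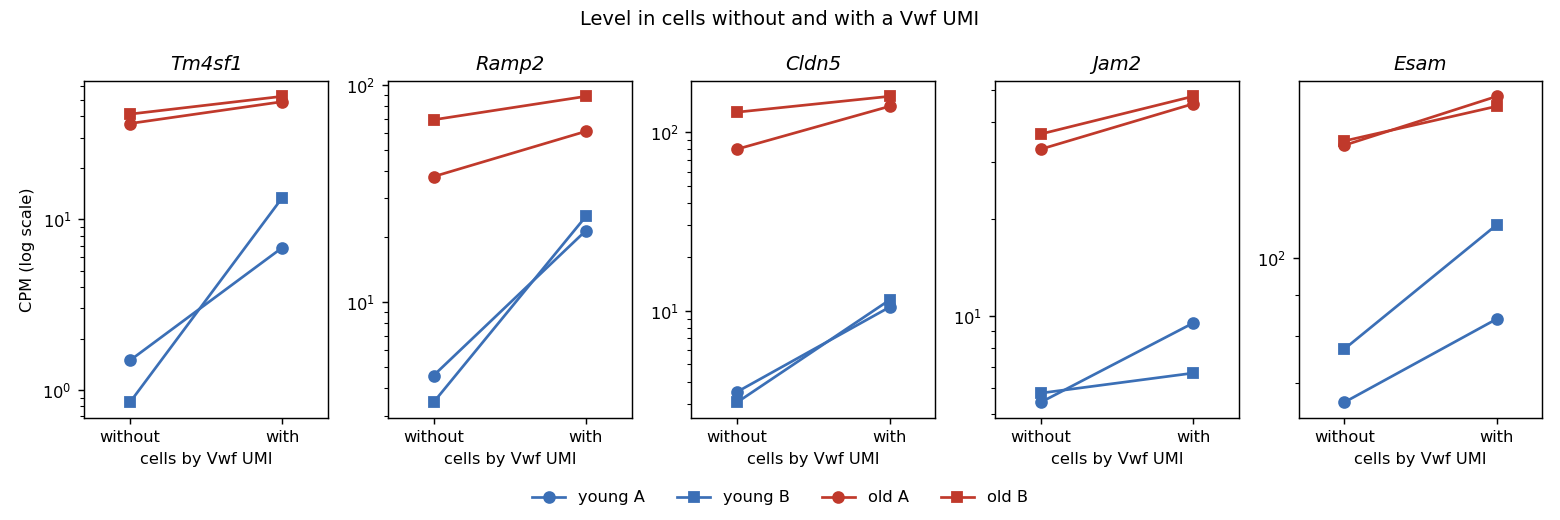
Level in CPM (log axis) of 5 genes in cells without and with a Vwf UMI, with 1 line per pool, blue for young, red for old, circles for platform A and squares for B. Tm4sf1 and Ramp2 climb steeply in the young pools (Tm4sf1 from 0.85 to 13.4 CPM in young B) and little in the old pools.

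For the Cd48 difference, the interaction with age was called lower in old cells for Alcam alone of the 8, at −0.72 ± 0.18 (adjusted p = 0.0318 by edgeR), where 0.616% of genes were called lower and 1.67% higher. The Alcam ratio with against without Cd48 was between 0.52 and 0.62 in the young pools and between 0.30 and 0.35 in the old pools. It was not called after thinning (adjusted p = 0.122 by edgeR), where Esam was called instead (−1.13, adjusted p = 0.00728 by edgeR), with DESeq2 (0.213), or without young A (0.0991), young B (0.145) or old A (0.0874). For the Procr difference, no gene of the 8 was called, where edgeR called 0.17% of genes higher and 1.1% lower. Inside the Procr classes, the Cldn5 fold of old over young was 20.5 and 38.3 on A and B with Procr and 26 and 23.9 without Procr, so it was wide in both kinds of cells.

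Other junction and adhesion genes were examined through a list of 79 symbols of claudins, junction scaffolds, cadherins, nectins, adhesion receptors and receptor partners, of which 72 were in the files and 51 had enough counts to be tested with age. The list was written with earlier results of these data known, so its calls are not independent evidence. Cd38, a surface enzyme that splits NAD, was called higher in old pools and no gene of the list lower, 1 of 51 genes beside 1.6% higher and 0.428% lower over all genes. Cd38 stood at 2.19 and 2.38 CPM in young A and B and at 25.9 and 13.5 CPM in old A and B, with a log2 difference of 3.01 ± 0.29 (adjusted p = 0.0217 by edgeR, 2 pools a group). Both old pools lay far above both young pools, and Cd38 was not called without old A or without old B. The tight junction protein gene Ocln (1.90, adjusted p = 0.0541 by edgeR) and the epithelial adhesion gene Epcam (2.50, 0.0556) did not pass. Of the 51 genes, 37 had differences above 0 and 14 below, with a median of 0.24 against 0.01 over all genes.

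Binding partners of the 8 proteins were measured too. Jam3 (JAM-C), to which JAM-B binds, stood at 17.1 and 18.7 CPM in young A and B and at 27.1 and 18.7 CPM in old A and B (0.28 ± 0.20, adjusted p = 0.603 by edgeR). Calcrl, the receptor that RAMP2 accompanies, stood at 21.7 and 15.5 CPM in the young pools and at 28.5 and 11.4 CPM in the old pools (−0.07 ± 0.23, 0.926 by edgeR). Ramp1, another partner of Calcrl, stood at 457.6 and 428.3 CPM in the young pools and at 254.6 and 291.9 CPM in the old pools (−0.75 ± 0.22, 0.19 by edgeR). Adm, which encodes the ligand adrenomedullin, had UMIs in old A alone, 8 in all. Adm had too few UMIs to be tested, and no difference with age was called for Jam3, Calcrl or Ramp1.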

How the data were processed

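The deposited files hold raw UMI counts per gene and cell for 4 pools of 10x Genomics v2 libraries. Per the labels and the study's methods, the authors made these counts with Cell Ranger 2.2.0 on GRCm38 (mm10). In each pool, cells more than 2 SD from the average logarithm of UMIs were dropped, following the study's methods, leaving 16399999 to 36446168 UMIs per pool. No doublet caller was run beyond that filter. Levels are UMIs per 1000000 UMIs of a pool (CPM). Counts summed per pool, or per pool and marker class, were tested with edgeR 4.0.16 in R 4.3.3, with platform or pool as a block. The settings were quasi-likelihood, TMM scaling, filterByExpr and Benjamini-Hochberg. The p-values rest on pools of 2 or 3 mice, not on cells, and the SE can be narrower than the spread between pools. Deviations from the age means correlated at 0.576 over 13555 genes between pools of the same letter, which the study's methods describe as 1 mouse batch and 1 facility. Clusters were made with Seurat 5.3.0 (15 components, 20 neighbours, resolution 0.5) and named from marker lists. Shares of cells have exact 95% binomial intervals, covering counting error only, and a count of 0 was read as up to 3 counts. The fits were tested on simulated data, with an outcome that is not reported here and on which nothing rests. Alternatives were no block, DESeq2 1.42.0, no filter on low counts or on cells, thinning to 3000 UMIs, leaving out each pool, and clustering at resolution 0.3 or 0.8 or with all variable genes kept. The genes and the list of other junction genes were chosen with earlier results of these data known. The named genes are the 8 chosen ones, list genes past an adjusted p of 0.05, their binding partners and the 3 genes most alike in pattern, by Pearson correlation of log2(CPM + 10) among genes of at least 10 CPM, of which some are not reported here. Ocln and Epcam were named after their values were seen.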

Additional observations from a re-analysis of the deposited data

Results flagged for a closer look

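Pecam1 differed in direction between the platforms. Its fold of old over young was 1.26 on platform A and 0.54 on platform B, with 1 pool of each age on each platform, and the difference between platforms was not tested. In the pools weighted to the same clusters, the folds were 1.23 and 0.54.

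For 4 genes, the difference between 2 kinds of cells was not alike in old and young pools by an interaction term. The term uses the age contrast that chose the genes, and after thinning it was called for none of the 4. The term was −2.39 on the log2 scale for Tm4sf1 and −1.92 for Ramp2, for cells with against without a Vwf UMI. It was −1.15 for Cldn5 in the same contrast. It was −0.72 for Alcam in cells with against without a Cd48 UMI. Each was negative, so the log2 difference was lower in old cells. The young Vwf-positive sums rested on 14 to 15 UMIs for Tm4sf1, 12 to 23 for Cldn5 and 26 to 47 for Ramp2.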

How the results depend on the processing

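The age differences of the 8 genes are descriptions, and their median stayed between 1.83 and 2.35 on the log2 scale over the alternatives. Without the replicate block, edgeR called 0 genes with age (217 higher and 58 lower with it, and 1103 without it at an unadjusted p below 0.05), and 1 of each direction for Procr. For the group, it called 0 genes higher with Procr, 0 higher and 1 lower with Cd48, 0 higher with Vwf, and 0 of the interaction terms with Cd48 or Vwf. In the list of other junction genes, 1 was higher with age, 0 without the block, 3 with DESeq2, 7 higher and 1 lower with no low-count filter, 3 with no filter on cells, 2 when thinned and 0 to 3 when a pool was left out. DESeq2 gave 1 gene of the group higher with Vwf and 0 interactions with Cd48. The count of genes higher with Cd48, 1 (Pecam1), was 0 with no filter on cells, 0 when thinned and 0 to 1 when a pool was left out. Interactions lower in old cells came to 0 to 1 for Procr and 0 to 1 for Cd48 when a pool was left out. For Vwf, thinning gave 0 lower and no filter on cells gave 1 higher (Alcam). The share of cells with at least 3 of the 8 was 0.732%, 0.684%, 16.2% and 12.6% (young A, young B, old A, old B) when thinned. When a pool was left out, the age difference of Pecam1 (−0.318) ran from −1.12 to 0.415 and that of F11r (1.2) from 0.605 to 1.87. Pecam1 also turned direction between classes, from −0.044 to 0.0981 for Procr (−8.03e-04 without old A) and from −0.0708 to 0.0178 for Vwf. For the other results on single genes between classes, 181 kept direction and call, 28 lost the call and 4 gained it. Over all genes, the other alternatives gave 0 to 564 called higher and 0 to 210 lower with age, 1064 to 2535 and 1253 to 2382 for Procr, 930 to 2935 and 939 to 3279 for Cd48, and 74 to 342 and 141 to 528 for Vwf. For interactions they gave 10 to 88 higher and 10 to 320 lower for Procr, 76 to 389 and 14 to 160 for Cd48, and 1 to 45 and 15 to 108 for Vwf. In the other clusterings the highest old cluster of Cldn5, Jam2, Ramp2 and Alcam was named tgf-like at resolution 0.3, cluster 0 at 0.8 and HSC-like with all variable genes kept, and that of Tm4sf1 was ifn-like at 0.8. The causes of these changes were not tested. With 2 pools an age, and 12 to 47 UMIs behind several young sums, small differences were not detectable.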
